A study of Homo sapiens with 2 samples.

Results

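MHC class II genes encode the paired alpha and beta chains that carry peptides to the surface of antigen-presenting cells. The 10 members described here are CIITA, HLA-DRA, HLA-DRB1, HLA-DPA1, HLA-DPB1, HLA-DMA, HLA-DMB, HLA-DOA, HLA-DOB and CD74. They were chosen by name as genes of the class II pathway, with earlier results of these data known, and were found by Entrez number among 25702 gene features. The RNA came from REH, an established human line of acute lymphoblastic leukaemia arrested at the B-cell precursor stage (REH-R in the labels). One culture carried a tet-regulated PAX5-IRES-GFP cassette and the other tet-regulated IRES-GFP alone, where IRES is an internal ribosome entry site and GFP a fluorescent protein. Doxycycline (1 µg/mL, 3 days) was given to both and both were sorted for GFP, so drug, reporter and sort are shared and the cassette's PAX5 is the labelled difference. Each group was 1 library of 1 line, and whether a line was a clone or a mixed population is not given in the sources used here.

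Class II alpha and beta chains assemble in the endoplasmic reticulum around the invariant chain, CD74. In endosomes CD74 is cut down, and the chaperone HLA-DM (HLA-DMA with HLA-DMB) exchanges its remaining fragment for peptide, while HLA-DO (HLA-DOA with HLA-DOB) restrains HLA-DM. CIITA does not bind DNA itself. It is recruited by RFX, CREB and NF-Y factors sitting on the X and Y boxes of class II promoters, and B cells express it constitutively. PAX5 commits progenitors to the B lineage.

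Promoter stretches of members are shown because X and Y boxes are the sites through which CIITA is known to act on class II genes. RefSeq promoter windows (GRCh38.p14, 250 bases before to 50 after a gene start) were found for 8 of 10 members, in 9 windows, but not for CIITA and HLA-DRA. After reading these windows, 2 strings resembling the boxes were chosen and searched on both strands: AGNNNCNGATG for X and ATTGG for Y, whose reverse complement is the CCAAT sequence. The matches are in capitals, each line is the strand of the gene, and all lie before the annotated start.
HLA-DRB1, chr6:32589884-32589933, minus strand: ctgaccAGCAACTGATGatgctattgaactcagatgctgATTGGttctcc
HLA-DMA, chr6:32953166-32953216, minus strand: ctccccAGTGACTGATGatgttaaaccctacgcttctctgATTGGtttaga
HLA-DOB, chr6:32817090-32817138, minus strand: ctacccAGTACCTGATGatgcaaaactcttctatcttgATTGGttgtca
HLA-DMB, chr6:32941074-32941122, minus strand: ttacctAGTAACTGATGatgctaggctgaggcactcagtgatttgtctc
HLA-DPB1, chr6:33075865-33075901, plus strand: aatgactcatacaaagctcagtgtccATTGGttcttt
HLA-DOA, chr6:33009648-33009684, minus strand: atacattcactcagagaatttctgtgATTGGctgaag
CD74, chr5:150412953-150412989, minus strand: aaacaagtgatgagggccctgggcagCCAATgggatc

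HLA-DRB1, HLA-DMA and HLA-DOB held the X string followed by the Y string on the same strand, with 22, 23 and 21 bases between them. An X string before a Y string at a distance of 10 to 35 bases, where the strings cannot overlap, occurred in 31 of 35116 RefSeq windows (0.0883%). Those 31 include the windows of these members and of the other HLA-D genes named below. Because the strings were chosen after reading the members' windows, this share describes how rare the pair is and is no test of the members. The X string alone was in 3.4% of windows and the Y string in 34.6%, so a lone Y string is common. The HLA-DMB window also holds a Y string, but not after the X string at that distance. Neither string was in the windows of HLA-DPA1. Among the other HLA-D genes, the windows of HLA-DRB5, HLA-DQB1 and HLA-DQB2 held the spaced pair. These are matches of letters only, and nothing in the counts measures binding there.

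Library totals were 11944765 counts with PAX5 and 10997864 for the control, and 13532 features had at least 10 counts over both. PAX5 itself had 8319 and 2660 counts, 2.91-fold more in the PAX5 library after scaling, so PAX5 was also expressed in the control cells. Reads of the cassette and of the cells' own PAX5 gene fall in the same count. Of 8 markers of B-cell precursors, all had at least 10 counts, and the mature B-cell markers MS4A1, CR2 and FCER2 had 0 in both libraries. Markers of other antigen-presenting cells were scarce. All 7 dendritic cell markers were at 0 in both libraries, which allows up to 0.252 counts per 1000000 (CPM) with PAX5 and 0.272 CPM for the control. In the monocyte list, S100A8, S100A9 and FCGR3A were at 0, CD14 had 1 and 3 counts with PAX5 and in the control, and LYZ 1 and 1. CD68, a lysosomal protein, had 81 and 67 counts. CSF1R, a cytokine receptor of macrophages, had 14 and 41 counts, a log2 ratio of -1.66 (-2.65 to -0.75), and was the only gene of the list with an interval off 0. The part of these markers in the class II values was not tested. The 7 genes summed to 8.16 CPM with PAX5 and 10.1 CPM in the control.

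Each ratio divides the scaled PAX5 value by the scaled control value and carries an exact 95% counting interval. With 1 library a group there is no test: the intervals compare 2 libraries, with no replicate check, and do not measure variation between cultures. Reads amplified by PCR without molecular identifiers are not independent molecules, so the intervals cover counting error only. In bulk RNA, a different share of expressing cells and a different amount of RNA per cell cannot be told apart.

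All 10 members had a log2 ratio above 0, from 0.23 for CD74 to 0.89 for HLA-DOB, and 9 of them had intervals above 0. For comparison, intervals lay above 0 for 18.7% of the features with at least 10 counts and below 0 for 16.8%. Counts of intervals in the lists below are to be read beside these shares. Abundant genes have narrow intervals, and among 5339 features with at least 1000 counts the share above 0 was 28.7%. None of the 10 reached a bound of 2-fold, which 1.34% of features reached on the higher side and 0.0517% on the lower. At a lower bound of 1.2-fold, 8 of 10 members were called higher, against 5.88% of all features and 6.14% of those with at least 1000 counts. Widening each interval by an assumed coefficient of variation of 0.1 between cultures left 6 members above 0 (5.93% of features), and one of 0.2 left 0 members (2.68% of features). The median log2 ratio of the members was 0.48, beside -0.01 for all features. Together the 10 genes took 0.469% of PAX5 library counts (exact binomial interval 0.465 to 0.473) and 0.377% of control counts (0.373 to 0.381).

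CIITA, the transactivator, had 1118 counts with PAX5 and 665 counts without the PAX5 cassette, or 94.0 and 60.2 CPM. It was therefore 1.56-fold higher with PAX5 (1.42 to 1.72). Of features with at least 1000 counts, 1.91% had a ratio as high. Counts per gene do not separate the CIITA transcripts that start at its different promoters.

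HLA-DRA, the nearly invariant alpha chain of HLA-DR, had 15916 and 11397 counts, or 1339 and 1032 CPM. Its ratio was 1.30-fold (1.27 to 1.33). Its beta partner HLA-DRB1, which carries most of the peptide-binding diversity of HLA-DR, had 2792 and 1948 counts and was 1.33-fold higher (1.26 to 1.41). The log2 ratios of the pair differed by -0.04 (alpha minus beta, exact conditional interval -0.13 to 0.05). That interval holds 0, and the difference does not depend on library scaling. After subtracting the median log2 ratio of features of like length, HLA-DRA had 0.50 (0.46 to 0.53) and HLA-DRB1 0.61 (0.53 to 0.70).

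HLA-DPA1, the alpha chain of HLA-DP, had 4871 and 3494 counts and a ratio of 1.30-fold (1.24 to 1.35). Its beta partner HLA-DPB1 had 2699 and 1778 counts and a ratio of 1.41-fold, a log2 ratio of 0.50 (0.41 to 0.58). Here the beta chain had the higher ratio by a narrow margin of counting error, with a difference of -0.12 (alpha minus beta, -0.23 to -0.02). After subtracting the median log2 ratio of features of like length, HLA-DPA1 had 0.57 (0.51 to 0.64) and HLA-DPB1 0.62 (0.53 to 0.71). These intervals overlap. The 4 presenting chains together were 1.31-fold higher (1.29 to 1.34). HLA-DPA1 and HLA-DPB1 overlap on opposite strands in RefSeq, and without a known strand setting their shared reads cannot be told apart.

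CD74, the invariant chain, was the most abundant member with 25642 and 20261 counts, or 2157 and 1834 CPM. It had the smallest ratio of the 10, 1.18-fold, a log2 ratio of 0.23 (0.21 to 0.26). The log2 ratio of CD74 was below that of HLA-DRA by more than counting error (difference -0.14, -0.19 to -0.10). The invariant chain was the member nearest to the bulk of the transcriptome, with 14.1% of features of at least 1000 counts at or above its ratio.

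HLA-DMB, the beta chain of the peptide exchange factor, had 398 and 227 counts and the highest ratio among members with over 100 counts, 1.63-fold (1.38 to 1.93). HLA-DMA, its alpha partner, had 780 and 523 counts and a ratio of 1.39-fold (1.24 to 1.55). The intervals of the pair overlap, and the difference of -0.23 (alpha minus beta) had an interval from -0.53 to 0.06. HLA-DMB exceeded HLA-DRA by 0.33 on the log2 scale (0.09 to 0.57).

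HLA-DOA, the alpha chain of the HLA-DM inhibitor, had 1785 and 1156 counts and a ratio of 1.43-fold (1.33 to 1.55). Its partner HLA-DOB was nearly absent, with 8 and 4 counts, and the interval of its ratio ran from 0.498 to 8.43-fold. No difference in HLA-DOB was detectable at this depth. The log2 ratios of the pair differed by -0.37 (alpha minus beta, -2.56 to 1.53), an interval that holds 0. Per length, HLA-DOA exceeded HLA-DOB 87.8 times with PAX5 and 114 times in the control library, which rests on few HLA-DOB counts. Transcript of the alpha chain of HLA-DO was therefore present in both cultures with almost none of its beta chain.

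**Figure D1:**
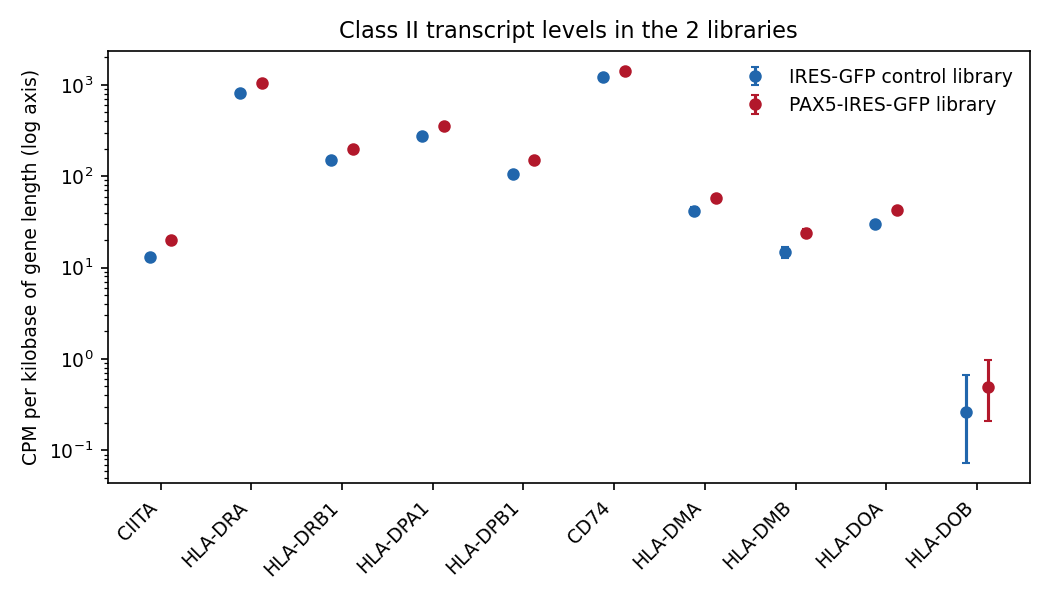
Level of each member in CPM per kilobase of gene length (log axis) in the control library (blue) and the PAX5 library (red); bars are 95% counting intervals. Every red point lies above its blue partner, and only for HLA-DOB, with 4 and 8 counts, do the bars of the 2 libraries overlap.

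Levels are set side by side per kilobase of the deposited length, with intervals that cover counting error only. How reads matching several genes were assigned is not given, so the order among similar or overlapping HLA genes is uncertain. In the control library CD74 was highest at 1211 CPM per kilobase and HLA-DRA next at 806, followed by HLA-DPA1 at 273, HLA-DRB1 at 151 and HLA-DPB1 at 107. HLA-DMA stood at 42.2, HLA-DOA at 30.0, HLA-DMB at 14.7, CIITA at 12.9 and HLA-DOB at 0.264. The order was the same in the PAX5 library, where CD74 reached 1424 CPM per kilobase and HLA-DRA 1046. Counting intervals of neighbours in this order were separate, except for HLA-DMB (12.9 to 16.7) and CIITA (11.97 to 13.95) in the control library. CD74 ranked 35 among all features in the control library and 16 in the PAX5 library, and HLA-DRA ranked 55 and 35. These 2 transcripts were thus among the most abundant of the control cells.

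**Figure D2:**
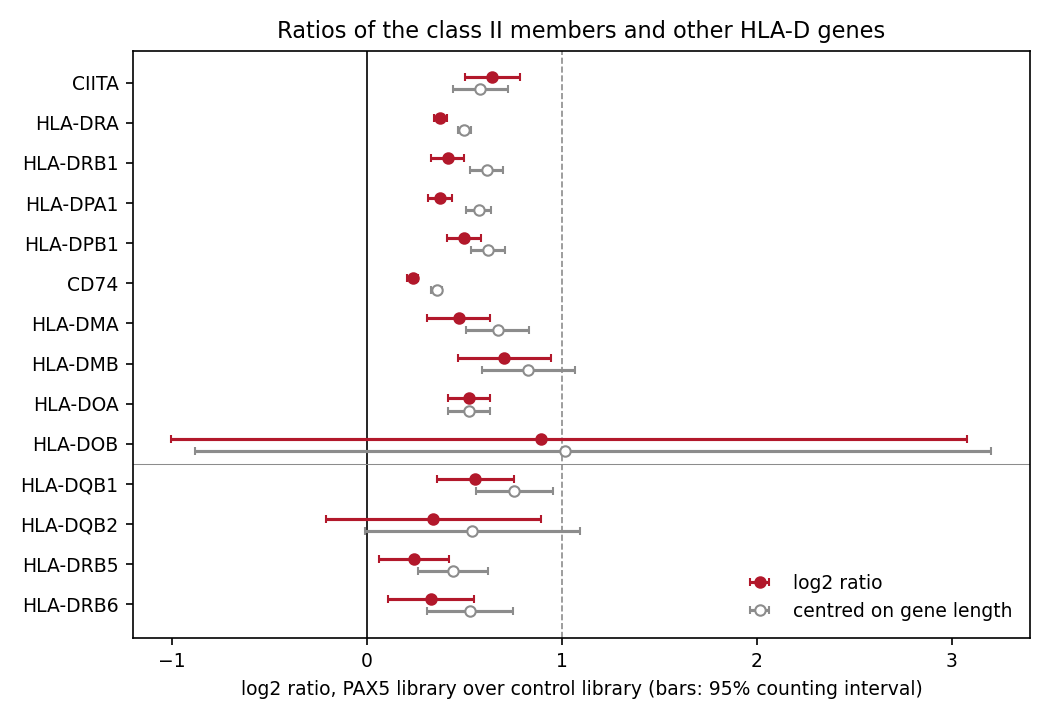
Log2 ratio of the PAX5 over the control library for the 10 members and, below the line, 4 other HLA-D genes with at least 10 counts (red, 95% counting intervals), and the same after subtracting the median of features of like length (open grey). The dashed line marks 2-fold, which no red lower bound reaches, and the only intervals that hold 0 are those of HLA-DOB and HLA-DQB2.

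Other HLA-D genes were in the table for 7 of 11 names listed. At least 10 counts were present for 4 of them, with a median log2 ratio of 0.33, 3 intervals above 0 and none below. HLA-DQB1, the beta chain of HLA-DQ, had 557 and 352 counts and a log2 ratio of 0.56 (0.36 to 0.75). Its alpha partner HLA-DQA1 had only 5 and 2 counts, and HLA-DQA2 had 0 in both. Why HLA-DQA1 had so few counts beside HLA-DQB1 was not tested. HLA-DRB5 had 582 and 458 counts (0.24, 0.06 to 0.42) and the pseudogene HLA-DRB6 405 and 300 (0.33, 0.11 to 0.55). Genes of the HLA-DRB group resemble each other closely, and how reads matching several of them were assigned is not given in the sources used here, so the split between HLA-DRB1, HLA-DRB5 and HLA-DRB6 is uncertain.

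The class II genes are short, and short features tended to be lower in the PAX5 library. In 10 equal groups by length among 10672 features with at least 100 counts, the median log2 ratio ran from -0.20 in the shortest group to 0.19 in the longest. HLA-DRB1, HLA-DPA1 and HLA-DMA fall in the shortest group, while CIITA, at 4654 bases, falls in a group with a median of 0.06. Centred on their groups, the members had a median of 0.60, and 9 of 10 intervals were above 0, against 16.6% of features. HLA-DRB1 went from 0.41 to 0.61 and HLA-DMB from 0.70 to 0.83, while CIITA went from 0.64 to 0.58. CIITA lay 0.17 above the median of the other 9 members without centring and below it with centring (-0.033). Whether the transactivator lay above the median of its targets, though not above each single target, therefore depends on how length is treated. Of the abundant features in the shortest group, 447 in number, 0.671% had a ratio at or above that of HLA-DMA, 0.895% at or above that of HLA-DRB1 and 1.12% at or above that of HLA-DPA1, these members included.

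**Figure D3:**
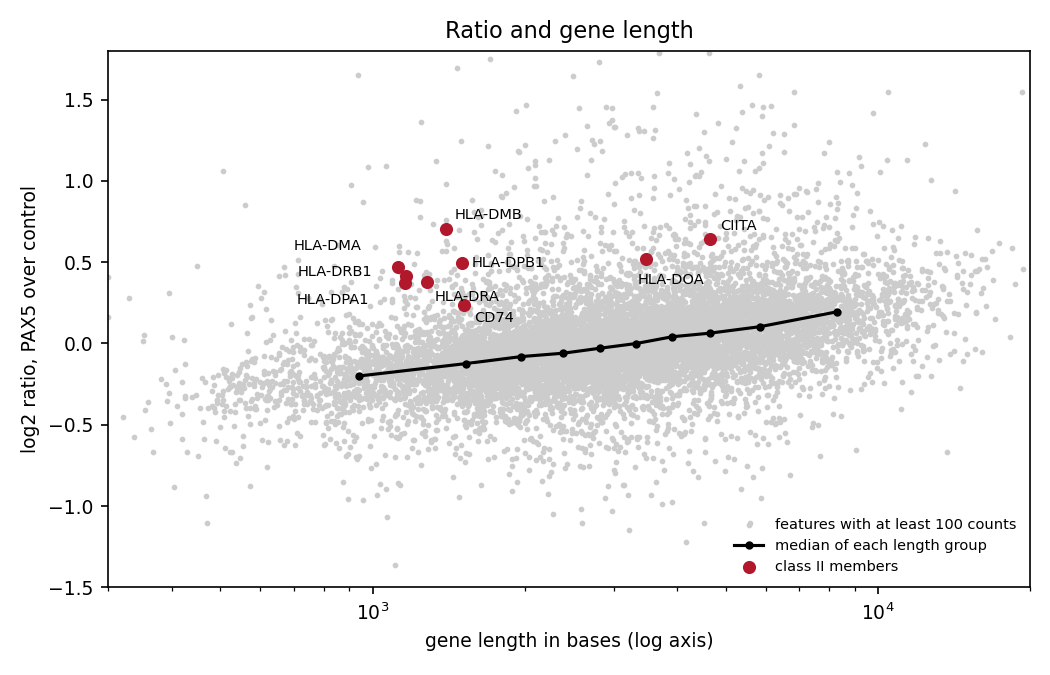
Log2 ratio against gene length in bases (log axis) for features with at least 100 counts (grey), the median of each of 10 length groups (black) and 9 members (red; HLA-DOB has too few counts), with 72 features outside the axes. The black line climbs from -0.20 to 0.19, and the short class II genes lie above it at 0.23 to 0.70.

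Class II genes share their region of chromosome 6 with genes that encode no class II chain, which gives a comparison within the locus. In the order of GRCh38.p14 from HLA-DRA to VPS52, 12 HLA-D genes had at least 10 counts, with 10 intervals above 0, none below and a median of 0.44. The 13 other genes had 2 intervals above 0, 3 below and a median of 0.01. Across all features with at least 10 counts, intervals lay above 0 for 18.7% and below 0 for 16.8%. TAP2 and PSMB8, which lie beside HLA-DOB and serve class I presentation, had log2 ratios of -0.09 (-0.19 to 0.01) and 0.01 (-0.07 to 0.10). PSMB9, an immunoproteasome subunit, had -0.27 (-0.39 to -0.15), and TAP1, the partner of TAP2 in peptide transport, had 0.35 (0.21 to 0.48). BRD2, a chromatin reader between HLA-DMA and HLA-DOA, had 0.06 (-0.01 to 0.13), beside 0.47 and 0.52 for those 2 neighbours.

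**Figure D4:**
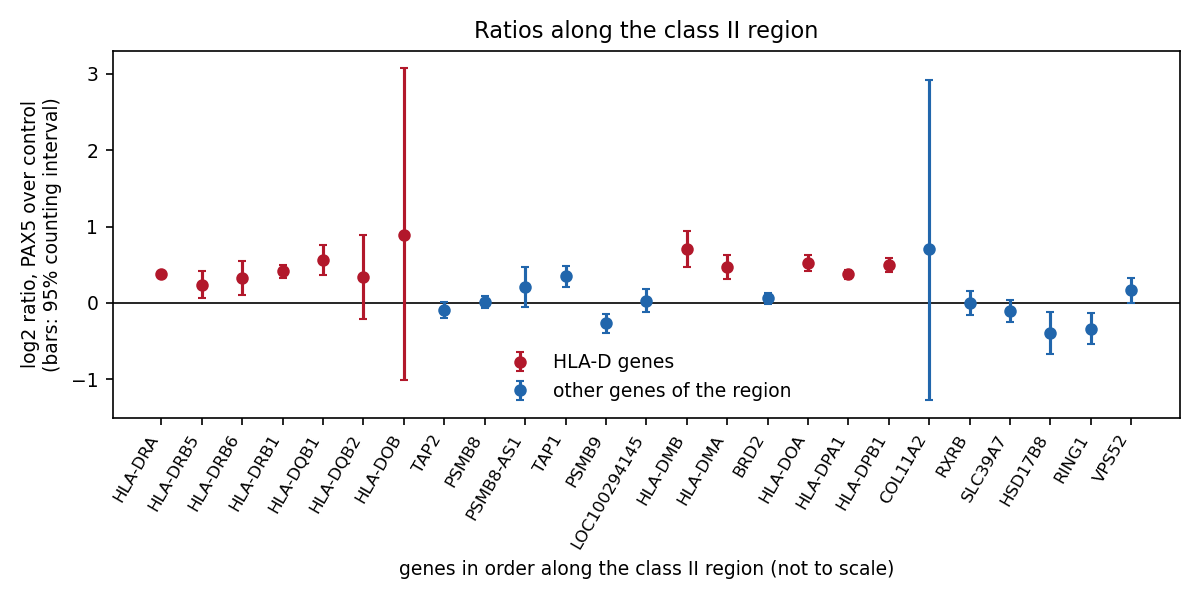
Log2 ratio of the PAX5 over the control library with 95% counting intervals for genes with at least 10 counts, in order along the class II region and not to scale; HLA-D genes are red and other genes blue. All 12 red points lie above 0, from 0.24 to 0.89, while the 13 blue points lie on both sides, from -0.39 to 0.70, the last being COL11A2 with 7 and 4 counts.

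The factors that bind class II promoters differed little. Of 8 listed genes, none reached the 2-fold bound, 2 had intervals above 0 and none below, with a median of -0.00. CREB1 had a log2 ratio of 0.24 (0.15 to 0.34) and NFYA, a subunit of NF-Y, of 0.16 (0.06 to 0.25). The 3 subunits of RFX had intervals that held 0, with RFX5 at 0.05 (-0.05 to 0.15), RFXAP at -0.17 (-0.37 to 0.03) and RFXANK at -0.21 (-0.42 to 0.01). Centred on length, no interval of the 8 lay off 0.

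Cofactors that work with CIITA had 6 of 11 intervals above 0 and 2 below, against 18.7% and 16.8% of features. Their median of 0.25 became 0.05 after centring on length. The acetyltransferases EP300 and CREBBP had log2 ratios of 0.39 (0.30 to 0.48) and 0.29 (0.21 to 0.38). SMARCA4, the ATPase of a chromatin remodelling complex, had 0.27 (0.22 to 0.33), and the methyltransferase CARM1 had -0.26 (-0.36 to -0.15). These are mostly long genes, and centred values were 0.19 for EP300 and 0.10 for CREBBP. CCNT1, a shorter gene of 2568 bases, had 0.35 (0.17 to 0.53) and, centred, 0.41 (0.23 to 0.59). After centring, the list kept 4 intervals above 0 and 2 below, while 16.6% of features lay above 0.

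Among 15 factors known to act on the CIITA gene or its B-cell promoter, 2 passed the 2-fold bound on the higher side, as did 1.34% of features. PAX5 itself was 1 of these, and since its count includes reads of the cassette, this was set by the design. The other was the Ets factor SPIB (122 and 35 counts, 3.24-fold, 2.21 to 4.86). IRF8 had 393 and 178 counts (2.05-fold, 1.71 to 2.46) and IRF4 119 and 53 (log2 ratio 1.06, 0.58 to 1.56), both without reaching the bound. FOXO1 had a log2 ratio of 0.49 (0.42 to 0.55). PRDM1, a repressor of CIITA in plasma cells, had 17 and 4 counts. SPI1, an Ets factor related to SPIB, had -0.23 (-0.35 to -0.10). The list had 8 intervals above 0, that of PAX5 among them, and 3 below with a median of 0.08, so its members did not share a direction. Over features with at least 10 counts, 18.7% of intervals lay above 0 and 16.8% below.

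Interferon-gamma also induces CIITA, in part through IRF1. Of 19 listed interferon-gamma response genes, 13 had at least 10 counts, with 3 intervals above 0, 5 below and a median of 0.02. CXCL9, CXCL10, CXCL11, IDO1 and GBP5 had 0 counts in both libraries. IRF1 had 1564 and 1783 counts, a log2 ratio of -0.29 (-0.39 to -0.20). The adhesion molecule ICAM1 had 362 and 163 counts (1.05, 0.77 to 1.32) and the GTPase GBP4 924 and 545 (0.66, 0.50 to 0.81). Centred on length, the list had 4 intervals above 0, 3 below and a median of -0.02. The part of interferon-gamma in the class II values was not tested.

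Genes listed for class II peptide loading and processing, not all of them enzymes, differed little. The list of 10 genes had a median of 0.01, and without centring on length the only interval off 0 was that of CTSH. Centred on length, the median was -0.01, with 3 intervals above 0 and 1 below, that of CTSH. Those above were IFI30 at 0.22 (0.05 to 0.39), CST3 at 0.33 (0.04 to 0.62) and NAPSA, with 16 and 6 counts. CTSS, the cathepsin that trims CD74, had 858 and 796 counts and a log2 ratio of 0.00 (-0.14 to 0.14). IFI30, a lysosomal thiol reductase, had 592 and 541 counts. CTSH, an aminopeptidase with 42 and 75 counts, had -0.94 (-1.52 to -0.38).

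Of 17 class I genes, 9 had intervals above 0 and 3 below, with a median of 0.14. The shares over features with at least 10 counts were 18.7% above and 16.8% below. Among features with at least 1000 counts, 28.7% lay above. The class I transactivator NLRC5 had 592 and 217 counts and passed the 2-fold bound, at 2.54-fold (2.17 to 2.98), while CIITA did not. Log2 ratios of the class I heavy chains HLA-B, HLA-C, HLA-E and HLA-F were 0.29 to 0.38, beside 0.37 to 0.50 for the presenting chains of class II, while the immunoproteasome subunit PSMB10 had -0.46 (-0.59 to -0.34) and the loading factor TAPBP -0.18, both with intervals below 0.

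**Figure D5:**
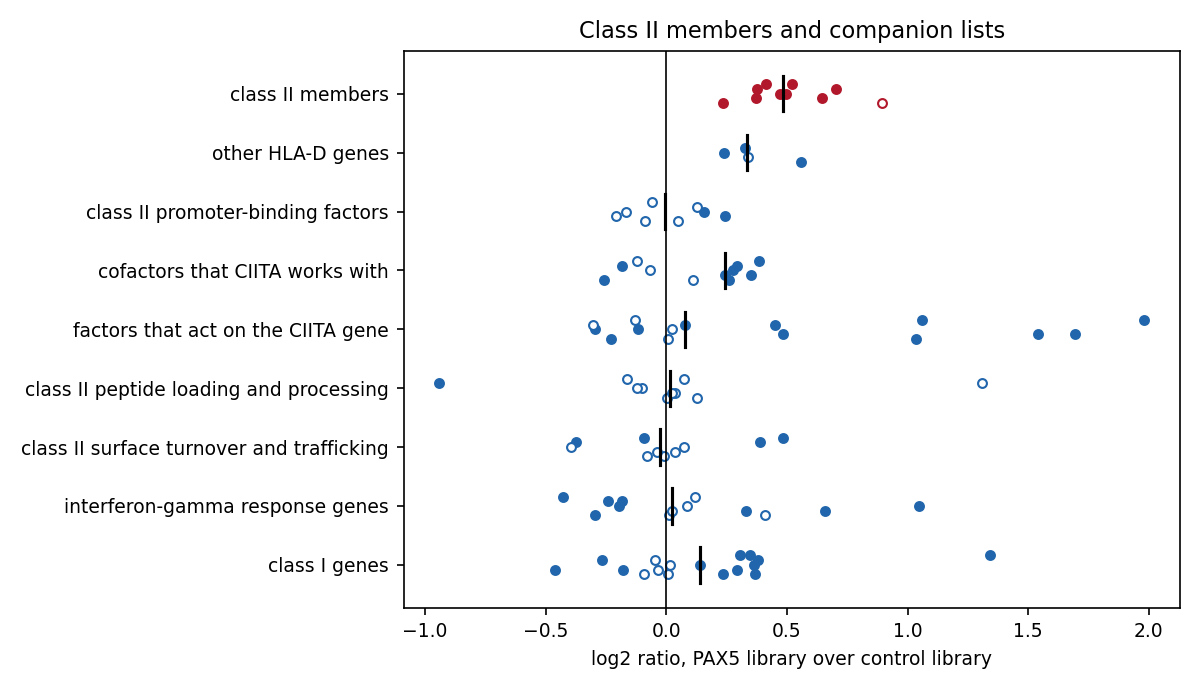
Log2 ratio of the PAX5 over the control library for each gene with at least 10 counts, by list; filled points have counting intervals off 0, open points hold 0, and black bars are medians. The class II members have a median of 0.48 and the other HLA-D genes of 0.33, and neither has a point below 0. Medians are 0.25 for cofactors of CIITA, 0.14 for class I genes and 0.08 for factors that act on CIITA. Those of promoter-binding factors, processing genes, interferon-gamma genes and trafficking genes are -0.00, 0.01, 0.02 and -0.02.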

How the data were processed

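Total RNA from 1 PAX5 and 1 control library was extracted with an RNeasy kit and prepared with NEBNext Ultra, per the labels' protocols. The authors deposited raw read counts per gene, with Entrez number and length in bases, and the submitters' processing notes name featureCounts and hg19 (GRCh37). Aligner, versions, strand setting and handling of multiply matching reads: not given in the sources used here. The series table and the files of the single libraries held the same 51404 values.

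Symbols came by Entrez number from RefSeq (GRCh38.p14) for 23696 of 25702 features. TMM factors from edgeR 4.0.16 scaled the libraries (factors 0.9954 and 1.0046). Ratios carry exact Clopper-Pearson 95% intervals (scipy 1.17.1), which cover counting error only. Features needed at least 10 counts in the sum of both libraries. Partner genes were compared by exact conditional odds ratios (9 pairs). With 1 library a group, neither edgeR nor DESeq2 1.42.0 could test a gene, so a lower bound at or beyond 2-fold, or at 1.2-fold, served as a rule of size. A count of 0 was read as up to 3 counts. The calculation was tested on simulated data.

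The members and lists were chosen with earlier results of these data known. All members are named, and up to 6 genes of each list by the largest bound away from 0, with others, such as IFI30 and SPI1, named after their values were seen for their role. With 2 libraries, no gene could be ranked by likeness of pattern. Alternatives were other scalings, count minimums, fold bounds, length centring and an assumed variation between cultures.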

Additional observations from a re-analysis of the deposited data

How the results depend on the processing

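The members' direction held under scaling by total counts, DESeq2 size factors and upper-quartile factors, after centring on length and from the files of the single libraries, and under each of these none reached a 2-fold bound and 9 had intervals above 0. Relaxing the bound from 2-fold to 1.2-fold called 8 members. The median of 0.48 became 0.60 after centring on length and 0.33 as a ratio of summed counts, in which CD74 and HLA-DRA weigh most. The gap between CIITA and the median of the other members went from 0.17 to -0.033 after centring. Adding an assumed coefficient of variation between cultures of 0.1 left 6 of 10 intervals above 0 (5.93% of features), and one of 0.2 left 0 (2.68% of features), so shifts of this size would need replicate cultures to be told from such variation. Leaving out HLA-DOB, chosen after seeing the data, gave a median of 0.47. No paired analysis was possible because each group has 1 library. Few counts limit the ratios of HLA-DOB and HLA-DQA1, with 12 and 7 counts in all.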

Other observations

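Genes that handle class II molecules after assembly did not share a direction. Of 10 listed genes of surface turnover and trafficking, 2 had intervals above 0 and 2 below, with a median log2 ratio of -0.02. MARCHF8, a ubiquitin ligase, had 415 and 295 counts in the PAX5 and control libraries (0.39, 0.17 to 0.61), and its relative MARCHF1, which ubiquitinates class II chains in B cells, had 18 and 22 counts. The tetraspanins CD82 and CD63, which accompany class II in endosomes, lay on opposite sides, at 0.48 (0.16 to 0.81) and -0.38 (-0.51 to -0.24).

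Of 8 genes that lie beside CIITA or CD74, 7 had at least 10 counts, with 2 intervals above 0, 1 below and a median of 0.21. NDST1, near CD74, had a log2 ratio of 0.30 (0.18 to 0.41), an interval that overlaps that of CD74, and 0.10 (-0.01 to 0.22) when centred on length. CLEC16A, next to CIITA, had 698 and 560 counts (0.21, 0.05 to 0.38), and NUBP1 had 387 and 367 (-0.03, -0.24 to 0.18). RPS14, a ribosomal protein gene beside CD74, had 8811 and 10400 counts (-0.34, -0.39 to -0.30), and TCOF1 had 1754 and 1611 (0.02, -0.08 to 0.12).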
